A study of Mus musculus with 4 samples.

Results

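Distal chromatin contacts that begin and end inside the body of 1 gene were collected from an H3K4me3 HiChIP map of mouse macrophages. A listed contact is a pair of 5-kb bins, and it was kept where neither bin lay within 5 kb of a transcription start site (TSS) of any biotype in the basic GENCODE M21 annotation and both bins overlapped the body of the same protein-coding gene. This rule found 4149 pairs among 237102 listed pairs, a share of 1.75% (95% Wilson interval 1.70 to 1.80%), and among 25200 pairs with no TSS near either bin it was 16.5%. The rule uses positions only, not counts or ratios. The pairs are referred to below as intragenic distal pairs, and a gene that contains a pair as its host gene.

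The cells were bone marrow-derived macrophages (BMDMs) of C57BL/6J mice, differentiated for 7 days and then either left untreated (basal, 2 samples) or treated with 20 ng/mL interleukin-4 (IL-4), which induces alternative activation, for 24 h (2 samples). HiChIP joins DNA ends that lie close together in fixed nuclei and enriches the joined fragments with an antibody, here to the promoter mark H3K4me3. The list analysed was made from the merged reads of all 4 samples, so basal and IL-4-treated cells could not be compared, no value below has a replicate error, no test was run and depth is unknown for every sample. Spread is given over the 19 autosomes as a description, and intervals of shares cover counting error only.

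Enhancers are stretches of DNA that bind transcription factors and act on promoters over long distances, and many lie in introns, either of the gene they act on or of a neighbouring gene that only houses them. Active promoters carry H3K4me3, and many enhancers carry H3K4me1 with less H3K4me3. In macrophages, the lineage factor PU.1 binds many enhancers together with AP-1 and C/EBP factors, and IL-4 acts through STAT6 and induces EGR2. The method that made the list admits a pair only where at least 1 bin holds an H3K4me3 peak, so each pair described here has a peak in an interval where the basic annotation has no nearby TSS.

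Bins that recurred in many pairs of their host genes differed in base composition, and the most CpG-rich intronic 150 bases of 4 of them are shown for that reason. All are from the mm10 (GRCm38) plus strand, lie outside annotated exons, and have each CG in capitals. They come from chr14:64440534-64440683 in Msra (17 CpG, from the bin in 42 pairs), chr8:108704317-108704466 in Zfhx3 (29 CpG, bin in 23 pairs), chr13:109260946-109261095 in Pde4d (4 CpG, bin in 40 pairs) and chr16:24624379-24624528 in Lpp (3 CpG, bin in 29 pairs).
Msra intron: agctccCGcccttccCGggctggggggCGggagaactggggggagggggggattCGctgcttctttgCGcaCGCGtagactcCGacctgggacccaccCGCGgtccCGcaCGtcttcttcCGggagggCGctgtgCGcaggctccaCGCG
Zfhx3 intron: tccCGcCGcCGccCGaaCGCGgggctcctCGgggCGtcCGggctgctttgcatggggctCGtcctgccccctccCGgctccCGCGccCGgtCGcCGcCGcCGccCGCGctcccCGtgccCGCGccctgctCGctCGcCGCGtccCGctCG
Pde4d intron: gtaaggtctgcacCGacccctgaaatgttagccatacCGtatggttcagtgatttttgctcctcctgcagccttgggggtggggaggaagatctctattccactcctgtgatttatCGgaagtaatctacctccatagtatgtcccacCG
Lpp intron: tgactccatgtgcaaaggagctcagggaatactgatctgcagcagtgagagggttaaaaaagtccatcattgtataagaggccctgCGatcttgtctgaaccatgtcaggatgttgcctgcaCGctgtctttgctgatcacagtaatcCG

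A match to the PU.1 consensus GAGGAAGT, searched on both strands, was present in 6 of the 12 bins that were in at least 19 pairs, beside 30.3% of all bins in the pairs and 27.3% of unlisted distal bins of the same genes. The match in 5 of these bins is shown with 16 flanking bases on the strand of the match, the match itself in capitals. The places are chr13:109261892-109261931 (plus strand) in Pde4d, chr14:30456413-30456452 (plus, 1 of 2 matches in the bin) in Cacna1d, chr16:24620196-24620235 (minus) in Lpp, chr4:32533813-32533852 (minus) in Bach2 and chr13:20313820-20313859 (minus) in Elmo1. A match is a description of letters and not evidence of binding.
Pde4d match: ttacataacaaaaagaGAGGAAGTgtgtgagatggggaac
Cacna1d match: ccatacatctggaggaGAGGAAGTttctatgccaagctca
Lpp match: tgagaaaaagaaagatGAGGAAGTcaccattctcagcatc
Bach2 match: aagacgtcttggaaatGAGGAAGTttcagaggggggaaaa
Elmo1 match: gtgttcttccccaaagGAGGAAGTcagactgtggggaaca

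The intragenic distal pairs were spread over 825 host genes, 1676 clusters of the deposited list and 4759 bins. Their distance had a median of 70 kb (quartiles 30 and 130 kb) and ran from 10 to 975 kb. The observed count of a pair had a median of 31 (quartiles 19 and 56) and ran from 7 to 425, so the weakest pairs rest on very few read pairs. The ratio of the observed count to the count expected by the authors' model had a median of 2.70 (quartiles 2.29 and 3.38), and its highest value was 12.2. Pairs that were alone in their cluster numbered 554 (13.4%). Of the hosts, 14 were read-through models, which are annotated transcripts that run across several neighbouring genes, and 142 pairs (3.42%) had no other host.

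Against other distal pairs of the same distance class, the observed/expected ratio was close. From 10 to 50 kb the median ratio was 2.32 for 1577 intragenic pairs and 2.39 for 1848 other distal pairs, and the intragenic median was the higher on 3 of 19 autosomes. The same order held from 50 to 100 kb (2.65 against 2.71, higher on 6 of 19), from 100 to 200 kb (3.20 against 3.30, 7 of 19) and from 200 to 500 kb (4.01 against 4.12, 6 of 19). Intragenic pairs were shorter as a group, since 1577 of 4149 and 1848 of 21051 other distal pairs (8.78%) spanned less than 50 kb. Beyond 500 kb only 38 intragenic pairs were listed, and their median ratio was 5.72 against 5.33. Ratios cannot be read across distances, because a pair with a low expected count needs a higher ratio to be listed. The classes are wide and distances inside a class were not matched, so the order of the medians cannot be told apart from distance. Median counts were 63 for intragenic and 55 for other distal pairs from 10 to 50 kb, and 28 in both sets from 50 to 100 kb.

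Because few gene bodies are long enough to hold long pairs, the listed pairs were also counted per 100000 possible pairs, meaning all combinations of distal bins with at least 4500 known bases. Bins of 1 gene were listed less often than bins of different genes at every distance, with 271 against 347 per 100000 at 10 to 20 kb, 175 against 263 at 50 to 70 kb, 90.5 against 157 at 150 to 195 kb and 5.52 against 14.9 at 500 kb to 1 Mb. At equal distances the rate inside 1 gene was 0.66 times that of bins in different genes (SD 0.45 over autosomes), below 1 on 14 of 19 autosomes, and lowest on chromosome 4 (0.29) and highest on chromosome 13 (2.26), where Pde4d alone hosts 96 of 304 pairs. It was 1.90 times the rate of bins that both lay between genes, and above 1 on 19 of 19 autosomes (range 1.10 to 3.94), although beyond 300 kb it was the lower (5.52 against 8.31 per 100000 at 500 kb to 1 Mb). The difference from bins in different genes turned on which genes were counted: with gene bodies limited to genes whose own promoter is in the list, an alternative added after the data were seen, the rate ratio was 1.02 and lay above 1 on 13 of 19 autosomes.

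**Figure D1:**
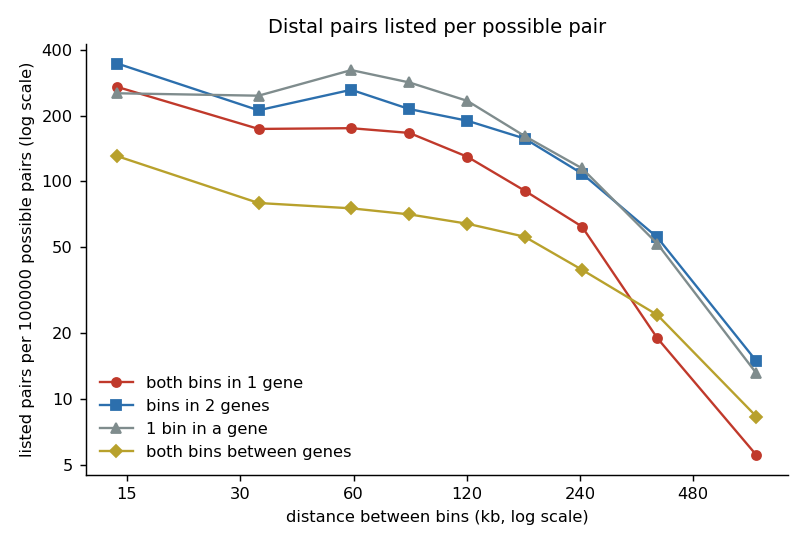
Listed pairs per 100000 possible pairs (y, log scale) against distance between bins in kb (x, log scale) for 4 classes of distal pairs, each point 1 distance band of the pooled list. Pairs inside 1 gene start at 271 and fall to 5.52, below pairs of different genes in every band.

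Genes whose own promoter was in the list hosted far more pairs than genes whose promoter was not. Of 8609 genes with at least 1 possible pair, read-through models left out, 811 (9.42%) hosted a pair. Among the 6642 whose promoter was in any listed pair, 745 (11.2%) were hosts, at 211 pairs per 100000 possible, and among the 1967 whose promoter was not, 66 (3.36%) were hosts, at 7.72 per 100000. The order held in each class of gene length. It was 286 against 23.0 per 100000 for genes of 200 to 500 kb and 59.7 against 1.77 for genes over 500 kb. Hosts were long, with a median length of 131 kb against 55.9 kb for all genes with a possible pair. Most hosted few pairs (median 2, and 299 with 1), and 103 hosted at least 10.

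**Figure D2:**
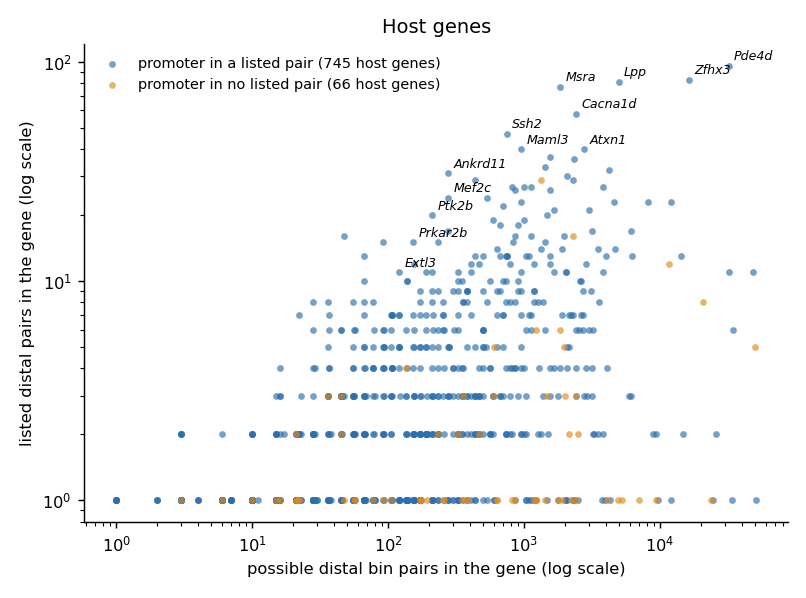
Listed intragenic distal pairs (y, log scale) against possible distal bin pairs (x, log scale) for 811 host genes, each point 1 gene, coloured by whether the gene's promoter is in any listed pair. Pde4d holds the most pairs (96), and Ankrd11 holds 31 of only 278 possible.

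The 12 leading hosts included phosphodiesterase, cytoskeletal, ion channel and transcription factor genes. Pde4d, which encodes a cAMP-degrading phosphodiesterase, held 96 pairs in 29 clusters with counts of 8 to 425 and a median distance of 262.5 kb. Zfhx3, which encodes a large zinc-finger and homeobox transcription factor, held 83 pairs (counts 9 to 96, median distance 125 kb). Lpp, which encodes an actin-associated LIM protein of focal adhesions, held 81 (counts 8 to 108, median distance 185 kb), and Msra, which encodes methionine sulfoxide reductase A, held 77 (counts 9 to 235, median distance 150 kb). Cacna1d, an L-type calcium channel subunit gene, had 58 pairs with counts of 7 to 64 and a median distance of 232.5 kb. Ssh2, a phosphatase gene of the cofilin pathway, had 47. Fewer were found in Atxn1 and Maml3 (40 each), Rere (37) and Arhgap26 (36). The remaining 2 leading hosts, Gm20388 (118 pairs over 4435 kb) and Gm37240 (39), are read-through models.

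Relative to the number of possible pairs, shorter genes led among those with at least 100 possible and 10 listed pairs. Hosts with fewer possible pairs, left out of this ranking, reached higher rates, such as Sgms2 (34.0 per 100, 16 of 47) and Ski (19.7, 13 of 66). Ankrd11, which encodes a chromatin regulator, held 11.2 pairs per 100 possible, Prkar2b (a regulatory subunit of protein kinase A) 9.80, Ptk2b (the kinase PYK2) 9.48, Extl3 (a heparan sulfate glycosyltransferase) 9.09 and Mef2c (a MADS-box transcription factor) 8.63. Fnbp1, a membrane-bending protein gene, followed at 7.79, with Rbm47 and Shb at 7.30 each. Over all 8609 genes the rate was 98.9 per 100000. Prkar2b differed from the other genes in this group, since none of its 15 pairs had a bin near a further TSS and all 15 fell into 1 cluster.

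The 5 pairs with the highest counts were all 10 kb apart. They were in Pde4d (425 observed, ratio 4.27), Ski (391, 2.99), Syne1 (375, 4.31), Ctc1 (353, 2.53) and Tnrc6b (347, 2.42). Ski encodes a repressor of TGF-beta signalling, Syne1 a nuclear envelope spectrin, Ctc1 a telomere maintenance protein and Tnrc6b a scaffold of microRNA silencing. The 5 with the highest ratios were longer. They lay in a read-through model named Arhgap26 (ratio 12.2, 73 observed, 145 kb), in Xylt1 (11.3, 44 observed, 145 kb), in 5730522E02Rik (11.2, 24 observed, 205 kb), in Cacna1d (10.8, 18 observed, 400 kb) and in Zfhx3 (10.0, 28 observed, 225 kb). Large ratios therefore rested on small counts in these last 3 genes.

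Many pairs shared a bin. Of 4759 bins, 3510 were in 1 pair, 280 in at least 5 and 64 in at least 10, and 2336 pairs (56.3%, 54.8 to 57.8%) held a bin that was in at least 5. The bin in the most pairs, chr14:64440001-64445000, lies near the 5′ end of Msra (chr14:64122625-64455903, minus strand). The TSS of Msra lies 10.9 kb from this bin, so the rule left no room for pairs upstream. All 42 of its pairs therefore ran towards the 3′ end of Msra, with counts of 18 to 235. Of these pairs 33 spanned 100 kb or more, and the highest ratio, 8.53, came from 76 counts at 260 kb.

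The Pde4d bin chr13:109260001-109265000 was in 40 pairs, 33 of them downstream and 7 upstream along the gene. Its highest ratio was 6.19 (60 counts, 280 kb downstream), and its farthest partner lay 695 kb away (10 counts, ratio 3.39). In Cacna1d, chr14:30455001-30460000 was in 33 pairs, all downstream, and 28 of them spanned 100 kb or more. This bin too lies near the 5′ end of its gene (chr14:30039939-30491455, minus strand), which left little room for pairs upstream. The counts of those Cacna1d pairs were low, with a median of 17 for the bin. Lpp had adjacent bins in 29 and 25 pairs, chr16:24620001-24625000 and chr16:24625001-24630000, in its interior, with partners on both sides.

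Behind these came chr8:108700001-108705000 and chr8:108720001-108725000 in Zfhx3 (23 and 21 pairs), chr8:122110001-122115000 and chr8:122230001-122235000 in the read-through model Gm20388 (23 and 22), chr15:80795001-80800000 in Tnrc6b (20), chr4:32530001-32535000 in Bach2 and chr13:20310001-20315000 in Elmo1 (19 each). Bach2 encodes a transcriptional repressor and Elmo1 an adaptor for engulfment and Rac activation. The Bach2 pairs all ran upstream, and their highest ratio was 8.18 (48 counts, 175 kb). The Elmo1 pairs all ran downstream, up to 245 kb. The Tnrc6b bin had counts of 53 to 347 and ratios of 2.03 to 2.79 over 10 to 110 kb.

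**Figure D3:**
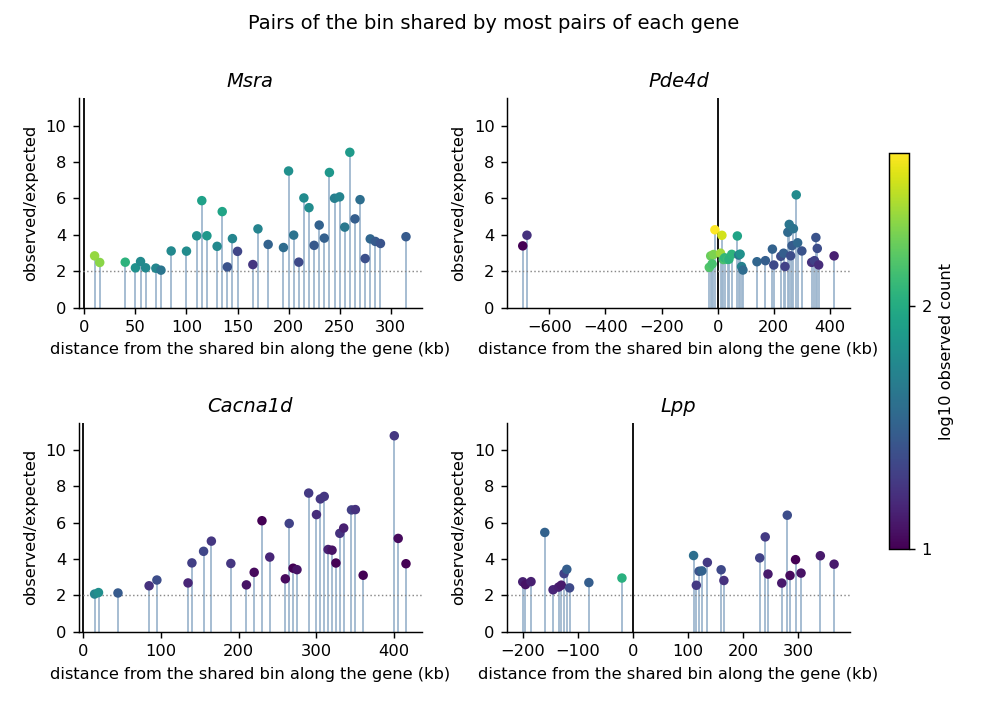
Observed/expected ratio (y) against signed distance in kb from the bin in most pairs of Msra, Pde4d, Cacna1d and Lpp (x, positive towards the 3′ end of the gene). Each stem is 1 pair, colour gives log10 of the observed count, and the dotted line marks the lowest listed ratio of 2. The partners of the Msra and Cacna1d bins all lie downstream, where the rule left no room upstream for Msra and little for Cacna1d.

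The label distal holds only for the basic annotation. When all transcripts of GENCODE M21 and RefSeq were added, 2048 intragenic distal pairs (49.4%, 47.8 to 50.9%) had a bin within 5 kb of such a further TSS, 461 (11.1%) had it at both bins, and 2101 (50.6%) at neither. Per bin the share was 28.1% (26.8 to 29.3%) of the bins in the pairs and 24.4% (24.2 to 24.6%) of all distal gene bins. The latter combine 18.6% (18.4 to 18.9%) of bins that are in no listed pair with 37.3% (36.8 to 37.8%) of bins that are listed in other pairs only, so the bins of the intragenic distal pairs lay between these groups. For bins in at least 10 pairs it was 34.4%, with an interval of 23.9 to 46.6% that includes the share over all bins of the pairs.

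A further TSS lay inside 6 of the 12 bins that were in at least 19 pairs. Over all bins in at least 10 pairs it did so in 11 of 64 (17.2%, 9.88 to 28.2%), and over all bins of the pairs in 11.9%. The Msra bin holds the starts of 3 RefSeq Msra mRNAs, the Pde4d bin that of the GENCODE transcript Pde4d-218, the Zfhx3 bin that of Zfhx3-202, and the Tnrc6b bin that of a RefSeq Tnrc6b mRNA. In the Cacna1d bin starts a RefSeq long noncoding RNA, 4831407H17Rik. The sixth, the Gm20388 bin in 22 pairs, holds the starts of RefSeq mRNAs of another gene, Zfp469. No further TSS lay within 5 kb of the leading Lpp, Bach2 and Elmo1 bins, whose nearest basic TSSs were 90.6, 15.2 and 38.1 kb away. CpG density ran from 10 to 42.6 per kb in the 6 bins with a start and from 4.4 (the leading Lpp bin) to 20.6 in the 6 without, so that the ranges overlapped.

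Most pairs had no exon in either bin. Neither bin overlapped an exon of a protein-coding gene in 2481 pairs (59.8%), 1 bin did in 1362 (32.8%) and both did in 306 (7.38%). The share of bins with an exon was 29.5% for bins in 1 pair, 23.5% for bins in 2 to 4, 17.6% for bins in 5 to 9 and 12.5% for bins in at least 10, against 32.1% of distal gene bins in no listed pair and 56.6% of those listed in other pairs only. Recurrent bins were thus largely free of exons of the basic annotation. Transcripts outside that annotation start in some of them, such as the leading Pde4d, Cacna1d and Tnrc6b bins, and their exons were not counted here.

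Promoters were often listed with bins of the pairs. In 2805 pairs (67.6%) at least 1 bin was also listed with a promoter bin of the host gene. In 751 pairs (18.1%, 17.0 to 19.3%) both bins were listed with the same promoter bin of the host gene, so that the 3 bins formed a closed triangle. Such a triangle with the promoter of another protein-coding gene was seen for 941 pairs (22.7%, 21.4 to 24.0%), and 244 pairs had both kinds. Over all distances 34.9% of intragenic pairs and 33.3% of other distal pairs had a triangle of either kind, but within each distance class the intragenic share was the lower. A triangle of either kind was found from 10 to 50 kb for 42.6% (40.2 to 45.1%) of intragenic pairs and 47.7% (882 of 1848) of other distal pairs, and from 50 to 100 kb for 36% (33.2 to 38.9%) and 41.9% (40.1 to 43.6%). From 100 to 200 kb the shares were 29.7% (26.9 to 32.7%) and 37.1% (35.8 to 38.4%), and from 200 to 500 kb 19.5% (16.2 to 23.3%) and 29.8% (28.8 to 30.8%). Triangles thus became rarer with distance in both sets. For clusters the intragenic share was the lower both over all distances and within each distance class. In total 2352 intragenic pairs (56.7%, 55.2 to 58.2%) and 61.7% (61.1 to 62.4%) of other distal pairs fell in a cluster that also holds a pair near a TSS. The shares were 57.8% against 64.8% from 10 to 50 kb and 50.4% against 59.1% from 200 to 500 kb.

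The promoter of Bcl6, a transcriptional repressor of inflammatory genes, was listed with both bins of 80 pairs, all inside Lpp, of whose 81 pairs these are all but 1. Bcl6 (chr16:23965052-23988852) lies upstream of Lpp (chr16:24393507-24992578), and its TSS was 429 kb from the nearest of the bins. In all, 63 Lpp bins formed 114 pairs with the Bcl6 promoter, over 430 to 1000 kb, with counts of 6 to 175. The strongest of them had a ratio of 28.9 at 635 kb. The 80 pairs inside Lpp spanned 10 to 500 kb, so the ratios of the sides of these triangles were not compared. Lpp's own promoter closed a triangle for 18 of its pairs.

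Pairs in further hosts also shared the promoter bin of another gene, and whether their bins act on these promoters was not tested. In Wwox, an oxidoreductase gene at a common fragile site, 11 of 13 pairs closed a triangle with the promoter of Maf, which encodes a transcription factor of macrophage identity, and the Wwox bins reached that promoter over 360 to 970 kb with ratios of up to 31.8 (243 counts, 610 kb). In Spidr, a DNA repair gene, 10 pairs shared the promoter of Cebpd, which encodes C/EBP delta (highest ratio 13.8, at 220 kb). All 18 pairs of Fmnl2, a formin gene, that closed a triangle did so with Stam2, an endosomal sorting gene, and the promoter of Fmnl2 was in no listed pair. The promoter of Fbxw7, a ubiquitin ligase gene, closed 24 triangles with pairs of the read-through model Gm37240, which spans Fbxw7 itself.

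The remaining leading promoters were of Eno1, the glycolytic enolase (21 pairs in Rere), Ifnk, an interferon gene (19 in Mob3b), Minpp1, an inositol phosphatase (18 in Sgms1), Endov, an endonuclease (16 in Rptor), Tlk1, a chromatin assembly kinase (15 in Mettl8), and Rps19bp1, a regulator of sirtuin 1 (11 of 13 in Tnrc6b). Gm37419 has a TSS in the bins of the Bcl6 promoter and the same 80 pairs, so the assignment of those bins to Bcl6 or Gm37419 cannot be told apart. For all 19 Mob3b pairs the promoter of Mob3b itself also closed a triangle, so Ifnk and Mob3b cannot be told apart there. Pairs to the promoters spanned other distances than the pairs inside the hosts, such as 120 to 365 kb against 10 to 170 kb for Minpp1 and 135 to 225 kb against 10 to 85 kb for Tlk1.

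**Figure D4:**
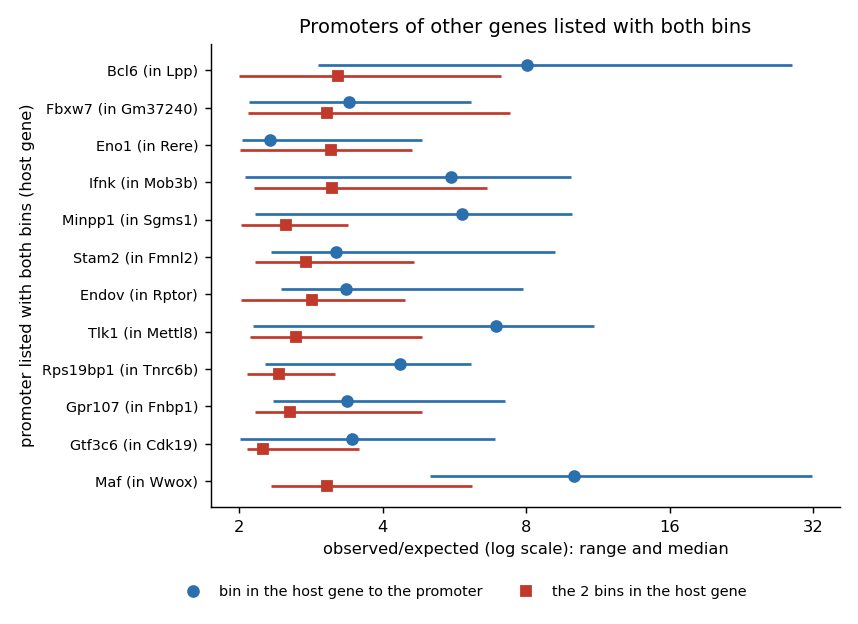
Range (line) and median (symbol) of observed/expected ratios (x, log scale) for 12 promoters that are listed with both bins of intragenic pairs (y, with the main host gene), for the pairs of the host's bins with the promoter (circles) and for the pairs inside the host (squares). Bcl6 and Maf reach ratios of 28.9 and 31.8, and circles and squares stand for different distances, so their positions cannot be compared.

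Gene lists were compared by the number of genes with a pair, beside 9.42% of all 8609 genes, a share not matched for gene length or listed promoter. Of 33 macrophage transcription factor genes with a possible pair, 13 (39.4%) hosted 103 pairs, and 20 hosted none. Mef2c held 24, Foxp1 23 and Tcf4 13. Mitf, a regulator of lysosomal and osteoclast genes, held 12, with counts of 18 to 151. Runx1 held 3 and Irf8, a short gene with 1 possible pair, held that pair (95 counts, ratio 2.15).

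Of 36 myeloid signalling and cytoskeleton genes, 13 (36.1%) hosted 172 pairs, led by Ssh2 (47), Arhgap26 (36) and Elmo1 (27). Of the integrin, Dock and Vav genes in the list that had a possible pair, Dock2 held 10, Itgam 5, Vav1 2 and Itgb2 1, and Dock8, Dock10, Vav3 and Itga4 held none. Long broadly expressed genes had a like share, 13 of 29 (44.8%), with Lpp (81), Atxn1 (40) and Rptor (27) in front. The median gene of every list hosted no pair, as did the median of all genes. The promoter was listed for 33 of 33, 35 of 36 and 28 of 29 genes of these lists, against 77.2% of all genes. The median lengths of the transcription factor, myeloid and broadly expressed lists were 109, 123 and 443 kb. Among genes with a listed promoter, 22.3% of those of 100 to 200 kb and 39.4% of those of 200 to 500 kb were hosts.

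Long neuronal genes offered the most room, and few pairs were listed for that room. Their 35 genes have a median length of 1125 kb and 890299 possible pairs, and 6 (17.1%) hosted 21 pairs, or 2.36 per 100000 possible. Of all 212 genes over 500 kb, 44 (20.8%) were hosts, at 22.1 per 100000. Magi2 held 11, Cntnap2 5 and Csmd3 2, and 29 held none. The promoter was in a listed pair for 7 of the 35, and genes over 500 kb whose promoter was not listed had the 1.77 per 100000 given above.

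Most IL-4 response and inflammatory genes are too short to contain a pair. Of 34 IL-4 response genes 22 had no possible pair, and of the 12 others 1 (8.33%) hosted pairs, Pparg, a nuclear receptor of lipid metabolism. Its 2 pairs joined chr6:115380001-115385000 to bins 90 kb (22 counts, ratio 2.85) and 100 kb (18 counts, ratio 2.55) away. Of 14 inflammatory genes with a possible pair 1 (7.14%) hosted pairs, Irak3, an inhibitor of Toll-like receptor signalling (2 pairs). Of 24 lipid, lysosome and scavenger genes 1 (4.17%) did, Plin2, a lipid droplet protein gene (1 pair). These few pairs came to 209, 436 and 143 per 100000 possible for the IL-4, inflammatory and lipid lists, beside 98.9 over all genes. The last rate is not matched for length, and the median lengths of these lists were 60.1, 41.7 and 40.4 kb. Genes with a listed promoter had 644 per 100000 under 50 kb, 616 at 50 to 100 kb and 466 at 100 to 200 kb, each above the rates of these lists.

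Among genes that the study discusses at a locus, 3 were hosts. Btbd11 held 6 pairs, of 60 to 190 kb with counts of 13 to 28 and ratios of 2.29 to 3.37, and 5 of them had a bin near a further TSS. Mtmr7, a phosphatase gene, held 2 adjacent pairs of 15 kb (33 counts, ratio 2.16) and 10 kb (51 counts, ratio 2.06), and both closed a triangle with a promoter of another gene. Pparg is given above. No pair was listed in Slc7a2, Cd36, Ripk2 or Mmp12, which had possible pairs.

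Sequence was compared between 4754 bins of the pairs and 13868 distal bins of the same host genes that are in no listed pair. GC content was 44.2% against 42.4%, a difference of 1.78 points (SD 1.24 over autosomes) and higher on 18 of 19 autosomes. CpG density was 10.4 against 8.84 per kb (difference 1.57, SD 1.14, higher on 16 of 19). Matches to GAGGAAGT (PU.1) averaged 0.36 per bin against 0.32 (SD of the difference 0.058) and were more frequent on 16 of 19 autosomes, and 30.3% of the bins held a match against 27.3% of the control bins and 26.4% of all 275859 unlisted distal bins. For bins in at least 5 pairs, that share was 38.6%. The difference in mean PU.1 matches, 0.043, was smaller than its SD over autosomes.

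Among the other consensus matches, each searched on both strands and set against the same control bins, EGR (GCGTGGG), whose letters hold a CpG, had the largest relative difference. It averaged 0.18 against 0.14 per bin, 1.27 times the control mean and higher on 14 of 19 autosomes, and was present in 16.1% of the bins against 12.6%. For bins in at least 5 pairs that share was 18.9%, and against all unlisted distal bins, of which 9.30% held a match, EGR was higher on 18 of 19 autosomes. The AP-1 consensus TGANTCA averaged 1.66 against 1.63 per bin (higher on 12 of 19 autosomes) and was present in 81.4% against 79.8%. C/EBP (TTGCNNAA) averaged 2.26 against 2.51 and was present in 87.5% against 90.5%, and STAT6 (TTC and GAA with any 4 bases between them) was present in 77.1% against 79.3%, both lower on 16 of 19 autosomes. For bins in at least 5 pairs C/EBP averaged 2.36, higher on 10 and lower on 9 autosomes. STAT6 there averaged 1.44 against 1.60, was present in 78.9% and was lower on 12. CTCF (CC, any 3 bases, AGG, any base, then GG) averaged 0.61 against 0.56 (higher on 14 of 19) and was present in 43.4% against 41.7%. The differences of all 5 from the same-gene control bins were each within their SD over autosomes. GC content and CpG density moved with the bins in the same comparison, and their part in the motif differences was not tested.

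**Figure D5:**
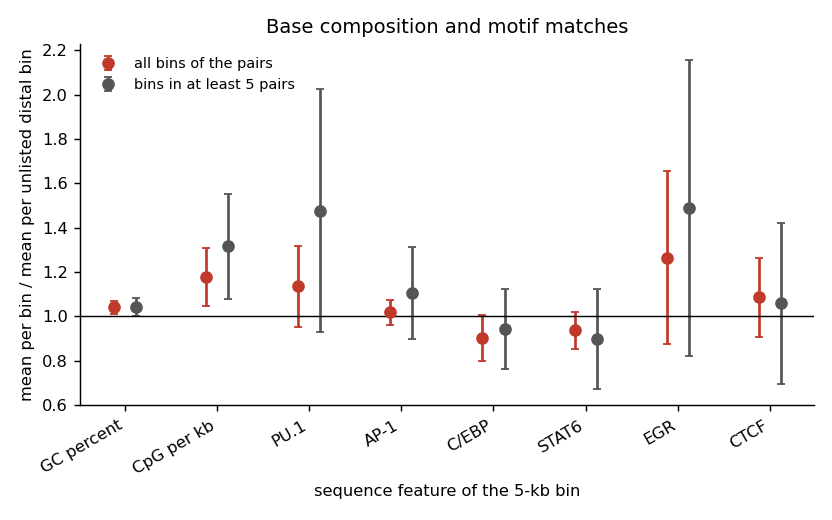
Mean per bin of the intragenic distal pairs divided by the mean of unlisted distal bins of the same genes (y) for 8 sequence features (x), for all bins (red) and bins in at least 5 pairs (grey). Bars are the SD over 19 autosomes of the difference, divided by the control mean, and the line at 1 marks equality; only GC content and CpG density lie above 1 by more than 1 SD.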

How the data were processed

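H3K4me3 HiChIP was measured in 4 BMDM samples, 2 basal and 2 IL-4-treated, grouped by their titles. The authors mapped reads to mm10 and ran MAPS with 5000-bp bins, pooling reads of the 4 samples. The deposited list gives per bin pair the observed count of read pairs, the expected signal of the authors' model (a fitted count), a false discovery rate (an adjusted p-value, below 0.01 throughout), a cluster with its label and number of pairs, and a −log10 p summed over the cluster by the authors, which was not used. The deposited ratio of observed to expected is at least 2 in every row. Which bins hold a peak was not used here, so possible pairs include pairs that the method could not list. A planned comparison of basal with IL-4 could not be made.

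Host genes, TSSs and exons came from the basic GENCODE M21 set, further TSSs from the full GENCODE M21 and RefSeq GRCm38 annotations, and bases from GRCm38, whose coordinates equal mm10 on the 19 autosomes analysed. Distances are between bin starts, positions count from 1. Rate ratios were standardised to the distances of the possible same-gene pairs and checked on data simulated with known ratios. The 8 gene lists (257 entries), the 6 motifs and the alternatives were chosen with earlier results of these data known. Genes were named by rule: the 12 hosts with most pairs, the 8 with most per 100 possible pairs (at least 100 possible and 10 listed), hosts of the 5 highest counts and ratios, the 5 most shared bins, the 3 leading genes of each list, the study's genes and the 10 most shared promoters. Bach2, Elmo1, Tnrc6b, Maf, Cebpd, further shared bins and further list members were added after their values were seen. Scripts ran in Python 3.11.15 (matplotlib 3.10.9, pandas 2.3.3, scipy 1.17.1, numpy 2.4.6).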

Additional observations from a re-analysis of the deposited data

How the results depend on the processing

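No paired analysis was possible because the list is pooled over all samples, and for the same reason no replicate could be left out. Counts of pairs and genes were taken as near those reported when within 1.5 times, shares when inside the 95% interval, and medians, rate ratios and sequence differences when within 1 SD over autosomes. By these rules 95 recomputed values stayed near, 35 moved and 1 changed sides. Those that stayed near include medians per gene, recomputed from clusters and from rates per possible pair. These medians could not move, because a median of 0 pairs per gene forces a median of 0 in either measure. With these medians and the sequence differences left out, 66 values stayed near, 30 moved and 1 changed sides. Counts called near still ran from 2808 pairs in 571 genes with the TSS distance at 10000 bp to 5403 in 1023 at 2500 bp and 5988 in 1008 with TSSs of protein-coding transcripts only. The same-gene to different-gene rate ratio stayed between 0.55 and 0.81 in every alternative except 1.02 when only genes with a listed promoter were counted.

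With a false discovery rate under 1e-06 there were 1825 pairs, with a median distance of 35 kb, a median ratio of 2.88, a triangle with the host promoter in 19.6% and with another promoter in 13.5%, and 54.5% in a cluster with a pair near a TSS. With ratios of at least 4 these values were 590 pairs in 198 genes, 185 kb, 4.87, 1.36%, 5.76% and 40%. With 1 pair per cluster they were 1101 pairs in 543 genes, a median ratio of 2.95, 0.45%, 0.82% and 0%, where the removal of other pairs of a cluster by itself breaks triangles and leaves no second pair. The share in clusters with a pair near a TSS was 65.4% without singletons, 60.9% and 48.4% with the TSS distance at 2500 and 10000 bp, 48.7% with TSSs of protein-coding transcripts only and 60.8% with further TSSs. The host promoter triangle was 15.2% at 2500 bp and 20.0% at 10000 bp. Requiring no exon left 2481 pairs in 480 genes, and adding further TSSs, an alternative chosen after seeing the data, left 2101 in 516. Dropping read-through models, also chosen after seeing the data, left 4007 pairs in 811 genes. Against all unlisted distal bins the GC difference was 3.53 points and the CpG difference 3.27 per kb, and for bins in at least 5 pairs the CpG difference was 2.79 per kb, the PU.1 difference 0.15 and the AP-1 difference 0.17.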

Other observations

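Along the host genes, intragenic distal pairs touched distal bins in all parts of the body, somewhat more towards the 5′ end. They used 20.4% of the distal bins in the most 5′ of 5 equal parts of the gene, then 18.7, 17.3 and 17.6%, and 15.5% in the most 3′ part. Of the bins in the pairs, 19.1, 21.3, 20.0, 20.7 and 18.9% lay in these parts, and of all distal bins of the same genes 16.7, 20.2, 20.5, 20.9 and 21.7%.

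In 500 intragenic distal pairs both bins held CTCF consensus matches in 1 orientation only. The matches pointed towards each other in 25.2% (95% Wilson interval 21.6 to 29.2%), away from each other in 23.4% (19.9 to 27.3%) and the same way in 51.4% (47.0 to 55.8%). Over 3083 other distal pairs these shares were 29.6% (28.0 to 31.3%), 19.6% (18.3 to 21.1%) and 50.8% (49.0 to 52.5%). These sets were not matched for distance, and intragenic distal pairs were shorter as a group.

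Further promoters of transcription factor genes closed triangles with fewer pairs. Egr3 did so with 9 pairs, all inside Pebp4, at a distance of at least 29.7 kb, and Atf4 with 8 pairs, 6 of them inside Tnrc6b. Egr3 and Atf4 were chosen after their values were seen. The promoter of Bin3 also closed triangles with 9 pairs inside Pebp4. Atf4 (chr15:80255184-80257541) and Rps19bp1 (chr15:80260615-80264315) are neighbours, so a bin can lie near both starts, and their triangles were not told apart.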
